A study of Mus musculus with 12 samples.

Results

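The genes described here encode the proteins of the complement system and of blood coagulation. They were chosen by symbol: 41 of the 24062 genes in the count tables, of which 21 were assigned to complement and 20 to coagulation and fibrinolysis. All 41 were listed, and all 41 passed the filter on low counts that left 12015 genes for testing. Libraries came from livers of male mice aged 14 weeks on a mixed 129SvEV-C57BL/6 background, each carrying floxed alleles of Nr5a2, the gene of the nuclear receptor LRH-1. Controls (F/F) had the floxed gene without Cre and, by the series' design text, an AAV8-eGFP vector. Knockouts (Cre) had received AAV8-Cre, a viral vector that reaches mainly hepatocytes, so other liver cells need not have lost the gene. For 6 weeks mice were fed either the standard diet, here SD (3 libraries of controls, 3 of knockouts), or the high-fat diet D12492, here HFD (4 libraries of controls, 2 of knockouts). The promoter that drives Cre is not given in the sources used here.

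Complement is a set of plasma proteins that mark and lyse microbes. Its classical and lectin pathways start with C1 or with mannose-binding lectins, all pathways meet at the cleavage of C3, and the terminal components assemble into a membrane pore. Coagulation is a cascade of serine proteases that ends with thrombin cutting fibrinogen into fibrin, which plasmin later dissolves. Hepatocytes make most of both sets of proteins, whereas the C1q chains come from macrophages, in liver the Kupffer cells. Several of these proteins, among them C3 and fibrinogen, belong to the acute phase response.

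Total counts were 2371167 to 3404570 in the SD libraries and 7463792 to 10875478 in the HFD libraries, so diet and sequencing depth cannot be told apart. Levels are given as CPM, a gene's counts scaled to the normalized library size in the usual way. Nr5a2 itself was not lower in the libraries labelled knockout. It stood at 84.4, 74.8 and 85.8 CPM in SD controls and at 95.3, 100.1 and 94.7 CPM in SD knockouts (log2 fold change 0.24, SE 0.11, adjusted p = 0.288). On HFD it stood at 77.0, 74.5, 64.3 and 66.8 CPM in controls and at 69.1 and 84.5 CPM in knockouts (0.12, SE 0.11, adjusted p = 0.719). Counts summed over a gene check a deletion only where the counted exons are removed, which the sources used here do not state, so each direction below rests on the labels. Nr0b2, the gene of SHP and a known LRH-1 target, was at 10.5, 15.3 and 12.8 CPM in SD controls and 0 in every SD knockout, and at 6.26, 13.3, 12.4 and 7.54 CPM in HFD controls and 0 and 0.335 in HFD knockouts. The defining hepatocyte genes were high in every library: the 9 listed hepatocyte markers summed to 145989 to 178745 CPM in SD controls, 143529 to 196583 in SD knockouts, for the HFD controls 132588 to 137884 and for the HFD knockouts 148819 to 192902. These sums overlapped on SD, but on HFD both knockouts lay above all controls. Of the 9, 0 passed on SD, where 4.38% of all genes tested did. On HFD 1 rose and 1 fell, where 1.04% and 1.66% of all genes did. Averaged over the diets 0 rose and 1 fell, where 3% and 5.36% did. The part of these markers in the changes of the members was not tested. In RNA from whole liver, fewer cells of a type and less RNA per cell cannot be told apart.

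Levels of different genes were compared per kilobase of the principal transcript (GENCODE M21), in SD controls. The fibrinogen gamma chain gene Fgg was the highest member at 3618 ± 691 CPM per kb (SD, n = 3), followed by C3 at 2211 ± 406 and the fibrinogen alpha chain gene Fga at 1826 ± 312. The spreads of C3 and Fga overlap, so their order is not resolved. The beta chain gene Fgb (1088 ± 252) and the kininogen gene Kng1 (1077 ± 104) came next and do not differ beyond their spread. The C1q chains were at the bottom, with C1qb at 20.0 ± 8.41, C1qc at 18.3 ± 3.63 and C1qa at 1.64 ± 0.865 CPM per kb. Thrombin (F2, 471 ± 41.5) stood well above the other proteases of the clotting cascade, such as F9 (259 ± 33.1), F10 (85.4 ± 8.04), F11 (76.9 ± 10.1) and F7 (50.1 ± 4.56).

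The question of the knockout comparisons is how loss of LRH-1 changes these genes. In complement, the central component C3 fell on each diet (difference between diets -0.02, SE 0.29, adjusted p = 1), the terminal component C8g and the inhibitor C4bp were lower, and C9, Mbl2 and Cfi were higher. On SD, 2 of 21 complement members rose and 3 fell, where 1.44% of all genes tested rose and 2.94% fell (4.38% in all). On HFD, 0 rose and 2 fell, where 1.04% of all genes rose and 1.66% fell (2.7% in all). By ranges, 4 members lay wholly above and 3 wholly below the controls on SD, where 10.3% and 12.3% of all genes did. On HFD 1 lay above and 4 below, where 10.3% and 11.9% of all genes did. Averaged over the diets, a contrast that uses all 12 libraries and shares them with the comparisons on each diet, 3 rose and 3 fell, where 3% of all genes rose and 5.36% fell (8.36% in all). The median log2 fold change of the averaged comparison was -0.01 over the 21 complement members and 0.00 over all genes tested.

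C3, whose cleavage is the step all complement pathways share, was at 8956, 12373 and 12732 CPM in SD controls and at 5753, 6044 and 4708 CPM in SD knockouts. On HFD it was at 6227, 7521, 10759 and 10934 CPM in controls and at 4373 and 4079.9 CPM in knockouts. Every knockout library lay below every control library of its diet. The fall was 2.06-fold on SD (log2 fold change -1.05, SE 0.20, adjusted p = 0.00813, edgeR quasi-likelihood test with Benjamini-Hochberg adjustment) and 2.1-fold on HFD (-1.07, SE 0.22, adjusted p = 0.0163). Averaged over the diets it was -1.06 (SE 0.15, adjusted p = 0.000407), and this call held under all 16 alternatives, left-out libraries included, with log2 fold changes from -1.12 to -0.93. The SD call was lost when SD knockout 3 was left out (highest adjusted p = 0.0544), and the HFD call when HFD knockout 1 or HFD knockout 2 was left out (highest adjusted p = 0.139) or with the replicate block (adjusted p = 0.0688).

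Promoter sequences of C3 and of C9 are shown because these members moved furthest in opposite directions on SD. Each run is 300 bases of RefSeq sequence, 250 before to 50 after the annotated start, on the gene's strand in build GRCm38.p6 (the counts themselves used mm9). Capitals mark a match to CAAGGTCA or CAAGGCCA on either strand, forms of the extended half-site that LRH-1 is known to bind. The first of these forms contains the half-site of other nuclear receptors. C3 is at chr17:57228087-57228386 on the minus strand and C9 at chr15:6445096-6445395 on the plus strand.
C3: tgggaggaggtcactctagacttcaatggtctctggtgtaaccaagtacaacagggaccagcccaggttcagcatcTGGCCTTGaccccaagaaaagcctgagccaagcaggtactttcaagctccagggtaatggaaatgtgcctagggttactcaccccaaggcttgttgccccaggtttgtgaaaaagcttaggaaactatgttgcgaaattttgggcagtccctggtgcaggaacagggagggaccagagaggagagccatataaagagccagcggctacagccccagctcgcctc
C9: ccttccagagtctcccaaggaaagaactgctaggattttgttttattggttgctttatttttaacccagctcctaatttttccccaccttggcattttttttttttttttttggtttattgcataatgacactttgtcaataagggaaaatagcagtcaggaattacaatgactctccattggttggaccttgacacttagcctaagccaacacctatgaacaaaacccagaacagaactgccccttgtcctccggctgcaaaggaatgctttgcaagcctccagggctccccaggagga
The C3 window held 1 match, CAAGGCCA on the opposite strand, whose outermost base lies 174 bases before the start. The C9 window held 0. Of the 31 members with a promoter in the RefSeq table, 3 (C3, F10 and Serpinc1) held a match, against 4.48% of all 27025 genes with a promoter of the same length there. A match describes the letters in this window and does not show binding.

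Other components of the C3 and C5 convertases did not pass in a knockout comparison. C4b stood at 337, 461 and 466 CPM in SD controls and at 290.3, 397 and 347 in SD knockouts (-0.29, SE 0.17, adjusted p = 0.417). Factor B, the alternative pathway protease encoded by Cfb, was at 906 ± 90.9 and 921 ± 104 CPM on SD (SD, n = 3 each) and at 1074 ± 64.9 (n = 4) and 1038 ± 14.5 CPM (n = 2) on HFD. C2, the protease of the classical and lectin C3 convertase and the neighbour of Cfb in the RefSeq annotation of GRCm38.p6, had an averaged log2 fold change of 0.32 (adjusted p = 0.143). C4b has a close paralog, C4a, so its counts are uncertain.

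Among the genes that start the classical and lectin pathways, Mbl2 rose on SD and 7 others did not pass in a knockout comparison. Mbl2, the gene of mannose-binding lectin C, was at 307, 388 and 395 CPM in SD controls and at 475, 503 and 819 CPM in SD knockouts, with no overlap (log2 fold change 0.72, SE 0.18, adjusted p = 0.0299). SD knockout 3 stood far above the others, and without it the log2 fold change was 0.43 (adjusted p = 0.15). The SD call also ended without any 1 of the SD controls (highest adjusted p = 0.0794). Levels on HFD were 499.9, 556, 451 and 454 CPM in controls and 593 and 545 in knockouts (0.22, SE 0.18, adjusted p = 0.675). Averaged over the diets it was 0.47, SE 0.13, adjusted p = 0.0323, a call lost when SD control 1, SD control 3, SD knockout 3, HFD control 3, HFD control 4, HFD knockout 1 or HFD knockout 2 was left out (highest adjusted p = 0.115). The lectin-associated proteases, Masp1 and Masp2, had averaged log2 fold changes of 0.02 for Masp1 (SE 0.07) and 0.04 for Masp2 (SE 0.07). Mbl1 was at -0.14, SE 0.14, adjusted p = 0.646 and C1ra, the gene of a C1 protease with a close paralog in C1rb, at 0.03, SE 0.08, adjusted p = 0.92.

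The C1q chains recognise bound antibody, and their 3 genes lie side by side. C1qb was at 11.3, 28.5 and 25.3 CPM in SD controls and at 20.7, 20.0 and 18.8 in SD knockouts, and at 38.6, 15.3, 25.9 and 19.8 CPM in HFD controls and 26.0 and 26.8 in HFD knockouts. C1qc was at 17.2, 23.3 and 25.6 and 19.0, 19.2 and 23.7 CPM on SD, and at 32.1, 14.4, 24.2 and 21.1 and 29.6 and 22.9 on HFD. C1qa had 0 to 9 counts per SD library, and its 1.17, 1.21 and 2.75 CPM in SD controls and 1.67, 0 and 1.04 CPM in SD knockouts cannot resolve a difference at this depth. Groups overlapped for all of these chains on both diets, and no chain passed in any comparison. The 15 listed Kupffer cell markers summed to 340.1 to 529 CPM in SD controls and 383 to 488 in SD knockouts, and, for the HFD controls, 299 to 672 and, for the HFD knockouts, 451 to 503, with 0 of 15 past the test in any knockout comparison and none at 0 in all libraries. HFD control 1 had the highest and HFD control 2 the lowest of these sums among HFD controls, the same libraries that were highest and lowest for C1qb and C1qc. C1qa was also lowest in HFD control 2 (1.24 CPM) but highest in HFD control 3 (4.01 CPM, against 2.72 CPM in HFD control 1).

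**Figure D1:**
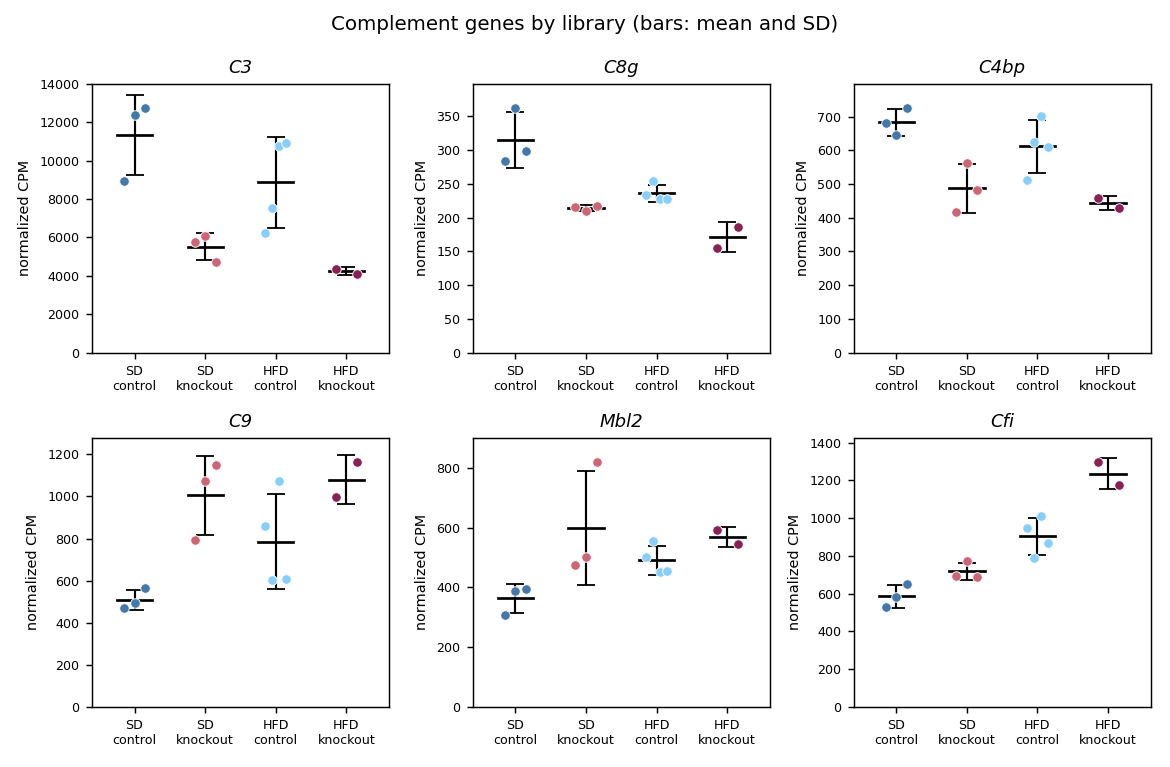
Normalized CPM (vertical axes, from 0) of 6 complement genes in each of the 12 libraries by group, with points for libraries and black bars for mean and SD. C3, C8g and C4bp lie lower in the knockouts of each diet, while C9, Mbl2 and Cfi lie higher in SD knockouts than in SD controls.

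The terminal pathway did not move as a unit: C9 rose on SD, C8g fell on both diets, and C6, C8a and C8b did not pass in a knockout comparison. C9, the component that polymerises into the pore, was at 468, 495 and 562 CPM in SD controls and at 795, 1074 and 1148 CPM in SD knockouts, 1.98-fold higher without overlap (log2 fold change 0.98, SE 0.20, adjusted p = 0.0106). On HFD the groups overlapped, at 859, 603, 1071 and 607 CPM in controls and 998 and 1162 in knockouts (0.46, SE 0.21, adjusted p = 0.323). The averaged change was 0.72, SE 0.14, adjusted p = 0.00501 and held under all 16 alternatives, left-out libraries included, whereas the SD call was lost when SD knockout 2 or SD knockout 3 was left out (highest adjusted p = 0.0613).

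C8g, the gamma chain of C8, was at 284, 362 and 298 CPM in SD controls and at 216, 209 and 218 in SD knockouts (log2 fold change -0.56, SE 0.11, adjusted p = 0.00955). Its HFD levels were 234, 253, 228 and 228 CPM in controls and 155 and 186 in knockouts (-0.46, SE 0.12, adjusted p = 0.0493). All knockout libraries were below all controls of their diet. The averaged change of -0.51, SE 0.08, adjusted p = 0.000986 held under all 16 alternatives, left-out libraries included. The SD call was lost when SD knockout 2 was left out (highest adjusted p = 0.0532), and the HFD call, which lay at the threshold, ended without any 1 of the HFD libraries but control 1 (highest adjusted p = 0.506).

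The alpha and beta chains of C8, encoded by neighbouring genes, and C6 had another pattern. C8a was at 869, 1045 and 1096 CPM in SD controls and 687, 1013 and 898 in SD knockouts, and at 549, 513, 976 and 731 CPM in HFD controls and 377 and 446 in HFD knockouts. C8b was at 664, 622 and 617 and 567, 1028 and 1127 CPM on SD, and at 374, 406, 953 and 565 and 354 and 495 CPM on HFD. C6, which follows C5b in the assembly of the pore, was at 359, 339.6 and 366 and 312, 570.0 and 523 CPM on SD, and at 225, 172, 431 and 232 and 157 and 178 CPM on HFD. SD knockouts 2 and 3 were high for C6 and C8b while SD knockout 1 was not, and HFD control 3 was the highest HFD library for all of these genes. HFD control 3 also had the highest level of the acute phase gene Saa1 among HFD controls, at 94.0, 11.9, 510.0 and 252 CPM in the HFD controls in order. The 19 listed acute phase genes together differed far less, with sums of 9466, 7246, 10289 and 9916 CPM in the same order. C3 and the fibrinogen chain genes, also acute phase genes, were highest in HFD control 4 among HFD controls. For C3 the gap was small (10759 CPM in control 3 and 10934 CPM in control 4). The part of acute phase genes in the values of C6, C8a and C8b was not tested. The knockout changes were 0.40 on SD and -0.66 on HFD for C6 (adjusted p = 0.49 and 0.308), and 0.52 and -0.43 for C8b (0.412 and 0.617). The difference between diets did not pass for either gene (C6: -1.06, SE 0.39, adjusted p = 0.568, C8b: -0.95, SE 0.44, adjusted p = 0.65). For C8a the HFD change of -0.75 (adjusted p = 0.106) passed with DESeq2 (adjusted p = 0.0324).

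**Figure D2:**
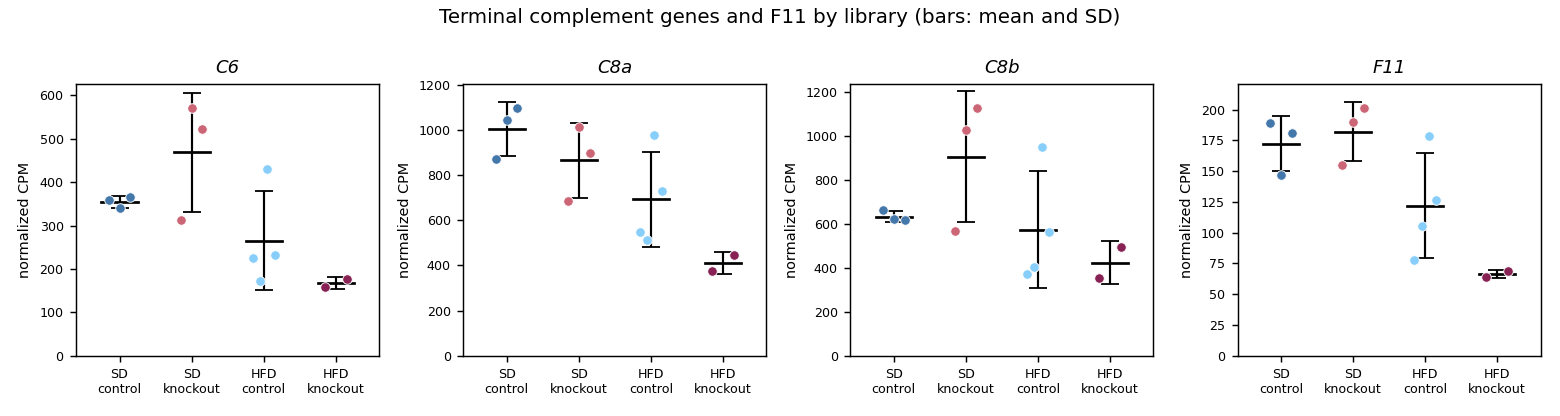
Normalized CPM (vertical axes, from 0) of C6, C8a, C8b and the factor XI gene F11 in each of the 12 libraries by group, with points for libraries and black bars for mean and SD. HFD control 3 is the highest HFD library in each panel, and both HFD knockouts lie below all HFD controls for C8a and F11.

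Of the complement regulators, C4bp fell, Cfi rose in the averaged comparison, and Serping1 and Vtn did not pass. C4bp, the C4b-binding protein that restrains the classical and lectin convertase, was at 680.3, 645 and 725 CPM in SD controls and at 417, 562 and 481 in SD knockouts (-0.49, SE 0.13, adjusted p = 0.045). On HFD it was at 512, 625, 702 and 609.9 CPM in controls and at 459.6 and 429.6 in knockouts, again without overlap (-0.46, SE 0.14, adjusted p = 0.106, and adjusted p = 0.036 with DESeq2). Its averaged change of -0.48, SE 0.10, adjusted p = 0.00549 held under all 16 alternatives, left-out libraries included, while the SD call was lost when SD control 1, SD control 2, SD control 3, SD knockout 1 or SD knockout 3 was left out (highest adjusted p = 0.162). Cfi, the protease factor I that degrades C3b and C4b with such cofactors, was at 528, 583 and 649 CPM in SD controls and 695, 771 and 688 in SD knockouts, and at 948, 787, 1013 and 867 CPM in HFD controls and 1296 and 1177 in HFD knockouts. No knockout library overlapped the controls of its diet, and the averaged change was 0.37, SE 0.09, adjusted p = 0.0129, which was lost when HFD knockout 1 was left out (highest adjusted p = 0.0633). Serping1, the C1 inhibitor, had an averaged change of -0.03 (SE 0.09), and vitronectin (Vtn), which blocks the terminal complex, of 0.09 (SE 0.11).

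Among the 20 coagulation members every change that passed in a knockout comparison was a fall. On SD, 6 of 20 members fell and 0 rose, where 2.94% of all genes tested fell. They were Fgb, Fgg, Kng1, Serpinc1, Plg and Serpinf2, which reach from clot formation to inhibition and fibrinolysis. On HFD, 0 of 20 passed by edgeR, where 1.66% of all genes fell. An unadjusted p under 0.05 was found for 6 of the 20 and for 1687 of all 12015 genes. By DESeq2, 3 of the 20 passed, and 424 of all 24062 genes listed. That base includes genes which the low-count filter removed, so its share is not comparable with shares of the 12015. Averaged over the diets, 8 of 20 fell and 0 rose, where 5.36% of all genes fell. The median averaged log2 fold change was -0.25 over the 20 members and 0.00 over all genes. By ranges, 10 members lay wholly below the controls on SD, where 12.3% of all genes did, and 8 on HFD, where 11.9% did. Wholly above lay 0 on SD and 2 on HFD (F13b and Pros1), where 10.3% of all genes did on each diet.

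Per kilobase the fibrinogen chains stood at or near the top of the coagulation members, as given above. Fgb, the beta chain, was at 3058, 4499 and 4875 CPM in SD controls and at 2169, 2845 and 2574 in SD knockouts (log2 fold change -0.71, SE 0.19, adjusted p = 0.039). HFD controls had 2383, 2373, 3234 and 3423 CPM and HFD knockouts 2029.5 and 2247 (-0.42, SE 0.20, adjusted p = 0.368). Fgg, the gamma chain, was at 4796, 6622 and 6980.1 CPM in SD controls and 3553, 4390.5 and 3863 in SD knockouts (-0.64, SE 0.17, adjusted p = 0.0416), and at 3093, 3092, 3982 and 4296 CPM in HFD controls and 2526 and 3063 in HFD knockouts (-0.37, SE 0.18, adjusted p = 0.377). In each diet all knockouts were below all controls for both chains. Within the SD controls, control 1 was the lowest library for Fga, Fgb, Fgg and C3. It was also lowest for other members such as F2, Kng1, Plg and Vtn, and highest for some, such as F9, F11 and F13b.

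Fga, the alpha chain, overlapped between the SD groups, at 3838, 4919 and 5416 CPM in controls and 2984, 4087 and 3276 in knockouts (-0.45, SE 0.17, adjusted p = 0.151). HFD controls had 4952, 4420.5, 6044 and 6199 CPM and HFD knockouts 4014 and 4419.9 (-0.36, SE 0.18, adjusted p = 0.391). Averaged over the diets, the chain genes, which lie side by side in the order Fgg, Fga, Fgb, were at -0.51 (adjusted p = 0.0187), -0.41 (0.0513, and 0.0145 with DESeq2) and -0.56 (0.0172). The SD calls of Fgb and Fgg ended without any 1 of the SD libraries but control 1 (highest adjusted p = 0.175 for both), and their averaged calls without SD control 3 or HFD knockout 1 (highest adjusted p = 0.0804 and 0.0994). F13b, the carrier subunit of the fibrin-crosslinking factor XIII, was at 0.13, SE 0.07, adjusted p = 0.285.

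In the contact and intrinsic pathway Kng1 fell on SD. Kng1, the kininogen from which kallikrein frees bradykinin, was at 1757, 2019 and 2126 CPM in SD controls and at 1381, 1345 and 1223 in SD knockouts (log2 fold change -0.58, SE 0.12, adjusted p = 0.00976). On HFD the groups overlapped, at 1525, 1555, 1846 and 1729.6 CPM and 1588 and 1417 CPM (-0.15, SE 0.12, adjusted p = 0.669). The SD call was lost when SD control 3 or SD knockout 3 was left out (highest adjusted p = 0.0635), the averaged call (-0.36, SE 0.09, adjusted p = 0.0147) when SD control 3 or HFD knockout 2 was left out (highest adjusted p = 0.0762), and Kng1 has a close paralog in Kng2. Klkb1, plasma kallikrein, was at 385, 373 and 403 CPM in SD controls and 321, 326 and 312 in SD knockouts, and at 223, 299, 332 and 287 and 230.4 and 217 CPM on HFD. It passed in the averaged comparison alone (-0.31, SE 0.09, adjusted p = 0.0443), a call that ended when any 1 library but HFD control 1 was left out (highest adjusted p = 0.137).

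F11, the neighbour of Klkb1, was at 189, 147 and 181 CPM in SD controls and 155, 189.7 and 201 in SD knockouts, which overlap (0.08, SE 0.22, adjusted p = 0.914). On HFD it was at 77.9, 105, 178 and 127 CPM in controls and at 64.1 and 68.9 in knockouts, where both knockouts were below all controls (-0.87, SE 0.24, adjusted p = 0.0696, and adjusted p = 0.0154 with DESeq2). F12, which starts the contact pathway, had an HFD change of -0.36 (adjusted p = 0.0968, and 0.0412 with DESeq2) and F9 an averaged change of 0.10 (SE 0.08).

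Of the extrinsic and common pathway, F7 fell in the averaged comparison and F2, F5 and F10 did not pass. F7, the protease that tissue factor activates, was at 91.0, 86.0 and 103 CPM in SD controls and 69.3, 64.8 and 67.6 in SD knockouts, and at 53.8, 71.8, 95.1 and 98.8 CPM in HFD controls and 51.1 and 49.5 in HFD knockouts. No knockout overlapped the controls of its diet, and the averaged change was -0.57, SE 0.13, adjusted p = 0.0137, a call lost when HFD knockout 2 was left out (highest adjusted p = 0.0547). Its neighbour F10, which factor VIIa cleaves, was at 191, 223 and 228 CPM in SD controls and 184, 201 and 194 in SD knockouts, with an averaged change of -0.11, SE 0.08, adjusted p = 0.517. F2, the prothrombin gene, was at 840.4, 985 and 981 CPM in SD controls and 749.6, 791 and 731 in SD knockouts (-0.31, SE 0.11, adjusted p = 0.155), below all controls, and at 842, 940.0, 1038 and 1055 and 919 and 896 CPM on HFD, where the groups overlap. F5, the cofactor of factor Xa, was at 0.09, SE 0.08, adjusted p = 0.562.

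Of the 4 anticoagulants, antithrombin alone passed in a knockout comparison. Serpinc1, which encodes this inhibitor of thrombin and factor Xa, was at 1568, 1829 and 1661 CPM in SD controls and at 1325, 1259 and 1206 in SD knockouts (log2 fold change -0.42, SE 0.10, adjusted p = 0.0294). HFD controls had 1232, 1289, 1318 and 1351 CPM and HFD knockouts 1199.6 and 1105, also without overlap (-0.17, SE 0.11, adjusted p = 0.537). The SD call was lost when SD control 2, SD control 3, SD knockout 2 or SD knockout 3 was left out (highest adjusted p = 0.128) and the averaged call (-0.29, SE 0.07, adjusted p = 0.0229) when SD control 2, SD control 3, SD knockout 2, SD knockout 3 or HFD knockout 2 was left out (highest adjusted p = 0.0984). With the replicate block the adjusted p was 0.0591 on SD and 0.0739 averaged. Proc, the protein C gene, was at -0.03 (SE 0.08), its cofactor gene Pros1 at 0.19 (SE 0.09), and the heparin cofactor gene Serpind1 at -0.02 (SE 0.07) in the averaged comparison.

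In fibrinolysis plasminogen and the plasma inhibitor of plasmin both fell on SD. Plg, the plasminogen gene, was at 828, 893 and 904 CPM in SD controls and at 614, 630.0 and 578 in SD knockouts (log2 fold change -0.53, SE 0.12, adjusted p = 0.0161). Its HFD levels were 1040.2, 1158, 1307 and 1332 CPM in controls and 908 and 1049 in knockouts, where knockout 2 overlapped the controls (-0.30, SE 0.12, adjusted p = 0.254). Serpinf2, which encodes alpha2-antiplasmin, was at 88.3, 115 and 109 CPM in SD controls and at 61.3, 66.4 and 59.9 in SD knockouts, 1.67-fold lower (log2 fold change -0.74, SE 0.15, adjusted p = 0.00916). On HFD it was at 127, 147, 174 and 184 CPM in controls and 118 and 121 in knockouts, without overlap (-0.40, SE 0.14, adjusted p = 0.186). The averaged changes of Plg (-0.42, SE 0.08, adjusted p = 0.00577) and Serpinf2 (-0.57, SE 0.10, adjusted p = 0.00252) held under all 16 alternatives, left-out libraries included. On SD the call of Plg was lost when SD control 3, SD knockout 2 or SD knockout 3 was left out (highest adjusted p = 0.0849) and that of Serpinf2 when SD knockout 3 was left out (highest adjusted p = 0.0534). Cpb2, a carboxypeptidase that slows fibrinolysis, was at -0.30, SE 0.11, adjusted p = 0.169 on SD.

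**Figure D3:**
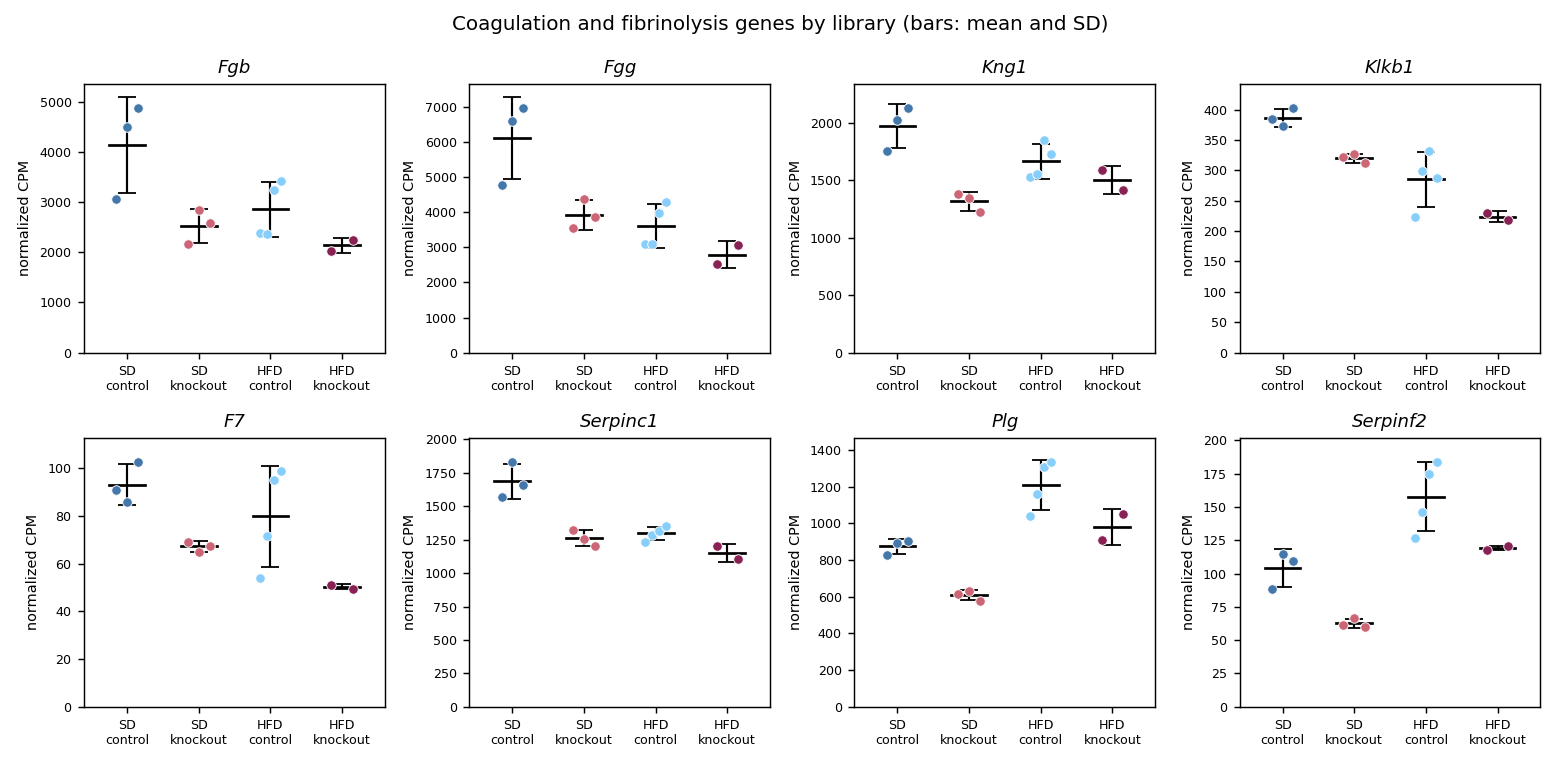
Normalized CPM (vertical axes, from 0) of the 8 coagulation genes that fell in the averaged knockout comparison, in each of the 12 libraries by group, with points for libraries and black bars for mean and SD. On SD all 3 knockouts lie below all 3 controls in every panel, and for Plg and Serpinf2 the HFD libraries lie above the SD libraries of the same genotype.

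The promoters of Fgb, Serpinc1 and F10 are shown as those of C3 and C9 above: Fgb fell without a match in this window, Serpinc1 fell with a match, and F10 had a match and did not pass in a knockout comparison. Fgb is at chr3:83049814-83050113 on the minus strand, Serpinc1 at chr1:160978333-160978632 and F10 at chr8:13037058-13037357 on the plus strand, all in GRCm38.p6.
Fgb: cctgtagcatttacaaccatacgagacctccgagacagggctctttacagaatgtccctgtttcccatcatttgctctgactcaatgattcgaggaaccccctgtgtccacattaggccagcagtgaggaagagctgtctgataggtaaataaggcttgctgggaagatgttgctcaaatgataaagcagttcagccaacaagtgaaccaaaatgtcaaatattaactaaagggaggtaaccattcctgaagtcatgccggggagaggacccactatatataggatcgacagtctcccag
Serpinc1: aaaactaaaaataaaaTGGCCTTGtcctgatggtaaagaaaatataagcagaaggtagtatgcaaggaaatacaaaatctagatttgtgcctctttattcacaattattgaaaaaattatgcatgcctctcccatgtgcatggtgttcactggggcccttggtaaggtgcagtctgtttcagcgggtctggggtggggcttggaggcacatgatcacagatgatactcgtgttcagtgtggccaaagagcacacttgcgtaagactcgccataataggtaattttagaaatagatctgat
F10: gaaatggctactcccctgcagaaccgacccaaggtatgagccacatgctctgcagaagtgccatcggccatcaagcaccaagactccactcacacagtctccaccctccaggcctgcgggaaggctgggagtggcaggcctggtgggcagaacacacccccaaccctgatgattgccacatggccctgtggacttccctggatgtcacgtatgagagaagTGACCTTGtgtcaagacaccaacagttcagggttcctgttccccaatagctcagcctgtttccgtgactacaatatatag
Both matches lie on the opposite strand. That of Serpinc1 (CAAGGCCA) has its outermost base 234 bases before the start and that of F10 (CAAGGTCA) 30 bases before it. In this window, then, the letters occur in 2 members that fell, C3 and Serpinc1, and in a member that did not pass. They are missing from the windows of Fgb and of C4bp, C8g, F7, Fgg, Klkb1 and Serpinf2, which also fell. Kng1 and Plg had no RefSeq promoter to read.

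Counts of calls depended on single libraries, among all genes tested as well as among the members. On SD, leaving out any 1 of the SD controls or knockout 2 gave 3 complement calls in place of 5, and leaving out knockout 3 gave 1. The 6 coagulation calls were 0 if knockout 3 was left out, 1 if control 3, 2 if knockout 2 and 3 if control 2. Of all genes tested, 4.38% passed on SD. That share was 1.75% if knockout 3 was left out, 1.82% if control 3 and 2.03% if knockout 2. It was 2.63% if control 2 was left out, 3.46% if knockout 1 and 3.96% if control 1. On HFD, leaving out control 1 gave 5 complement and 4 coagulation calls in place of 2 and 0. Of all genes tested, 5.46% then passed in place of 2.7%. That share was 1.73% if control 2 was left out and 1.89% if control 4 was. Complement had 1 call if control 2 or control 4 was left out and 0 if either knockout was. The 8 averaged coagulation calls were 3 if SD control 3 was left out, 4 if HFD knockout 2 and 5 if HFD knockout 1. The 6 averaged complement calls stayed within 1.5 times of that number under each alternative. In the averaged comparison 8.36% of all genes passed, and 5.25% if SD control 3 was left out.

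The knockout effect itself was tested for a difference between diets. By edgeR 0 of 41 members and 0 of all 12015 genes (0%) passed. An unadjusted p under 0.05 was found for 911 of all genes and for 5 of the members. By DESeq2, 0 of 41 members passed, and 33 of all 24062 genes listed, a base that includes genes which the low-count filter removed. Between the comparisons on SD and on HFD, which share no libraries, 14 of 20 coagulation members had lower means in the knockouts of both diets, 4 had higher means in both and 2 differed in sign. In complement 7 were lower in both, 5 higher in both and 9 differed in sign. Across the 41 members the log2 fold changes of these comparisons had a Pearson r of 0.55, given as a description, since genes are not independent replicates. The sign counts and this r were not computed over all genes tested, so they are not read as particular to the members.

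**Figure D4:**
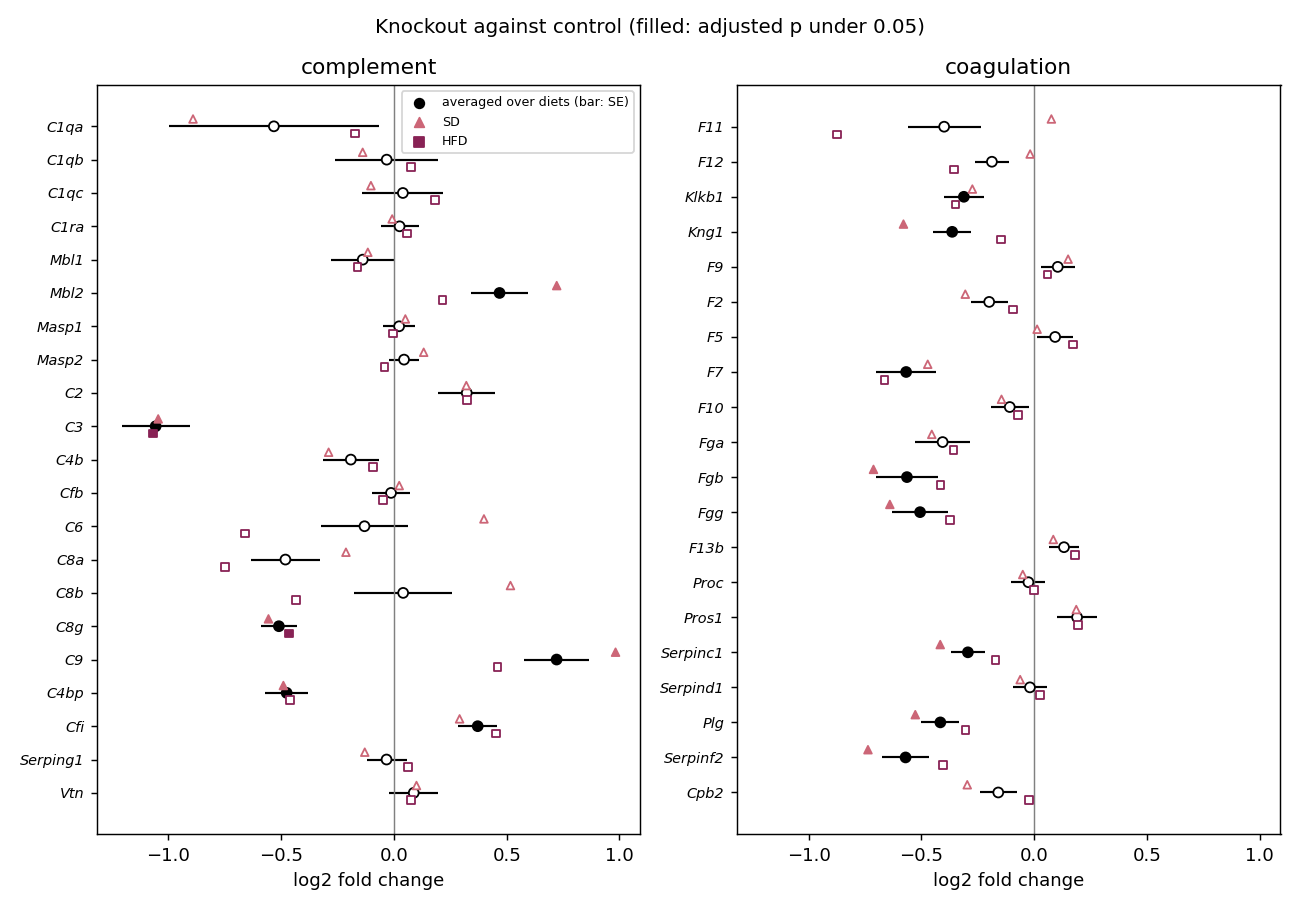
Log2 fold change of knockout against control (horizontal axes) for all 21 complement and 20 coagulation members: circles are the change averaged over diets with its SE, triangles the change on SD and squares that on HFD, and filled symbols passed at an adjusted p under 0.05. C3 lies furthest left in each of the comparisons, and all filled symbols in the coagulation panel lie below 0.

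Other genes of these pathways, from a list of 29 complement genes in the files (25 tested) and 37 coagulation genes (27 tested), moved in both directions. In the averaged comparison 4 complement genes rose and 3 fell, and 1 coagulation gene rose and 4 fell, where 3% of all genes rose and 5.36% fell. Cfd, the protease factor D that activates factor B and is known from adipose tissue, had 3.09, 0.621, 0.343 and 0.390 CPM in the HFD controls and 69.1 and 36.8 in the HFD knockouts (log2 fold change 5.40, SE 0.60, adjusted p = 0.000204). On SD it was at 0, 0.402 and 0 CPM in controls and at 11.7, 2.80 and 0 in knockouts, which differ widely among themselves; with 1 count in all SD controls together, no SD fold is given. Without HFD control 1, the highest HFD control, the HFD change was 6.81, and it passed under every alternative tried. Colec10, a liver collectin of the lectin pathway, rose on HFD from 47.8 ± 4.98 to 72.7 ± 6.46 CPM (0.60, SE 0.11, adjusted p = 0.00775), a call lost when HFD knockout 2 was left out (highest adjusted p = 0.0879). Hc, the gene of C5, which precedes C6 in the terminal pathway, was at 0.42, SE 0.11, adjusted p = 0.0305 in the averaged comparison, Colec11, another collectin, at 0.63, SE 0.17, adjusted p = 0.0328, and C1rl, a gene related to C1r, at -0.35, SE 0.10, adjusted p = 0.0355. Cpn2, a subunit of the carboxypeptidase that inactivates C3a and C5a, had an averaged change of -0.43, SE 0.08, adjusted p = 0.00501, and Cd59a, an inhibitor of the membrane pore, of -0.34, SE 0.09, adjusted p = 0.0318, which was lost when SD control 1, SD control 2, SD control 3, SD knockout 2, SD knockout 3, HFD control 2, HFD control 4 or HFD knockout 2 was left out (highest adjusted p = 0.129).

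Among the other coagulation genes, Serpine2 and Hgfac had the largest changes. Serpine2, the thrombin inhibitor protease nexin-1, was at 12.5, 8.84 and 10.4 CPM in SD controls and 88.0, 77.7 and 80.8 in SD knockouts (log2 fold change 2.96, SE 0.27, adjusted p = 4.32e-05), and at 19.1, 10.3, 9.04 and 10.1 CPM in HFD controls and 22.6 and 30.8 in HFD knockouts (1.12, SE 0.23, adjusted p = 0.0151). Its HFD call was lost when HFD control 2, HFD control 4 or HFD knockout 2 was left out (highest adjusted p = 0.168), and the difference between diets was -1.83, SE 0.36, adjusted p = 0.291, with adjusted p = 0.00254 by DESeq2. Hgfac, a protease related to factor XII that activates hepatocyte growth factor, was at 43.7, 63.5 and 55.5 CPM in SD controls and 13.7, 10.01 and 11.5 in SD knockouts (-2.20, SE 0.21, adjusted p = 4.73e-05), and at 53.8, 67.7, 78.6 and 85.1 CPM in HFD controls and 23.6 and 24.3 in HFD knockouts (-1.57, SE 0.19, adjusted p = 0.000314). Mcfd2, part of the receptor that carries factors V and VIII out of the endoplasmic reticulum, had an averaged change of -0.40, SE 0.08, adjusted p = 0.00501. Hrg, a plasma glycoprotein that binds plasminogen and heparin, was at -0.31, SE 0.09, adjusted p = 0.0417. Fgl1, a fibrinogen-like protein secreted by hepatocytes, was at -1.09, SE 0.29, adjusted p = 0.0302, a call lost when SD control 2, SD control 3, SD knockout 1, HFD control 4, HFD knockout 1 or HFD knockout 2 was left out (highest adjusted p = 0.121).

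Lists of other cell types, acute phase genes and liver transcription factors were read beside these members, again against 3% of all genes that rose and 5.36% that fell in the averaged comparison. Of 19 acute phase genes 1 rose and 4 fell in the averaged comparison, with a median log2 fold change of -0.27. The 11 stellate cell and fibroblast markers summed to 414 to 511 CPM in SD controls and 572 to 654 in SD knockouts, and to 365 to 518 and 526 to 596 CPM on HFD, without overlap, and 4 of them rose in the averaged comparison. Of the 7 cholangiocyte markers, 1 was at 0 in every library and the rest summed to 51.4 to 53.9 and 65.0 to 197 CPM on SD, without overlap, and to 27.6 to 106 and 88.6 to 100.5 CPM on HFD. The part of these markers in the changes of the members was not tested. The 12 endothelial markers summed to 343 to 438 and 388 to 447 CPM on SD, where they overlapped. They summed to 314 to 360.4 CPM in HFD controls and 396 CPM in each HFD knockout, without overlap. Of these markers, 1 was higher in the averaged comparison. The 9 lymphocyte and neutrophil markers summed to at most 43.5 CPM in any library. Of 20 liver transcription factors 2 rose and 5 fell in the averaged comparison, with a median of -0.27. That list includes Nr0b2, the known LRH-1 target given above.

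The diet comparisons ask how the high-fat diet changes the same genes, in controls and in knockouts. Each shares libraries with a knockout comparison, and diet cannot be told apart from the sequencing depth of its libraries. In controls 3 of 20 coagulation members rose and 10 fell on HFD, where 16.5% of all genes tested rose and 13.6% fell. In complement 3 of 21 rose and 3 fell. In knockouts 3 coagulation members rose and 4 fell, and 1 complement member rose and 4 fell, where 14.9% of all genes rose and 11.7% fell. In controls 30.1% of all genes passed in either direction and in knockouts 26.6%. By ranges, 9 coagulation and 3 complement members lay wholly lower and 4 and 5 wholly higher on HFD in controls, where 16.7% and 20.5% of all genes did. In knockouts 12 and 7 lay wholly lower and 6 and 7 wholly higher, where 24.5% and 28.2% of all genes did.

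In complement, Cfi rose on HFD in both genotypes (log2 fold change 0.62, SE 0.11, adjusted p = 0.0006 in controls, and 0.78, SE 0.13, adjusted p = 0.000383 in knockouts), with its per-library values as given above and no overlap between diets. C2 fell in both, from 68.0, 82.4 and 88.5 CPM in SD controls to 50.5, 41.2, 66.8 and 53.6 in HFD controls (-0.59, SE 0.16, adjusted p = 0.0131) and from 77.3, 111 and 111 to 60.9 and 71.9 CPM in knockouts (-0.58, SE 0.20, adjusted p = 0.0374). The HFD and SD libraries did not overlap for C2 in either genotype. The control call was lost when SD control 3 was left out (highest adjusted p = 0.0814) and the knockout call when SD knockout 2, SD knockout 3, HFD knockout 1 or HFD knockout 2 was left out (highest adjusted p = 0.233). Its neighbour Cfb was at 0.25, SE 0.11, adjusted p = 0.0961 in controls. Masp2 rose (0.39, SE 0.09, adjusted p = 0.0034) and C8g fell (-0.42, SE 0.10, adjusted p = 0.00577) in controls, and both calls held under each alternative. C9 rose in controls (0.63, SE 0.19, adjusted p = 0.0197), a call lost when SD control 1, SD control 2 or HFD control 3 was left out (highest adjusted p = 0.0721), and was at 0.10, SE 0.22, adjusted p = 0.772 in knockouts.

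Of the other terminal genes, C8a passed in both genotypes and C6 and C8b in knockouts. C8a fell in controls (-0.54, SE 0.19, adjusted p = 0.0472), a call lost when SD control 1, SD control 2, SD control 3, HFD control 1, HFD control 2 or HFD control 4 was left out (highest adjusted p = 0.163), and in knockouts (-1.07, SE 0.24, adjusted p = 0.00385), a call lost when HFD knockout 1 was left out (highest adjusted p = 0.054). C6 (-1.48, SE 0.31, adjusted p = 0.00256) and C8b (-1.09, SE 0.35, adjusted p = 0.0285) fell in knockouts. The C8b call was lost when SD knockout 2, SD knockout 3, HFD knockout 1 or HFD knockout 2 was left out (highest adjusted p = 0.21) and was not made by DESeq2 (adjusted p = 0.061). In controls, C6 was at -0.42, SE 0.25, adjusted p = 0.222 and C8b at -0.14, SE 0.28, adjusted p = 0.743. The 5 complement calls in knockouts became 3 without SD knockout 3, where 20.3% of all genes passed in place of 26.6%. They were also fewer without HFD knockout 1.

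In coagulation, F10, Plg and Serpinf2 rose on HFD in both genotypes while the other 10 calls in controls and 4 in knockouts were falls. F10 went from 191, 223 and 228 CPM in SD controls to 309, 344, 377 and 395 in HFD controls (log2 fold change 0.74, SE 0.11, adjusted p = 0.000102) and from 184, 201 and 194 to 362 and 316 CPM in knockouts (0.81, SE 0.13, adjusted p = 0.000207), with no overlap. Its neighbour F7 did not pass, at -0.23, SE 0.17, adjusted p = 0.329 in controls and -0.42, SE 0.20, adjusted p = 0.146 in knockouts. On the log2 scale Serpinf2 rose by 0.60 in controls (adjusted p = 0.00263) and by 0.93 in knockouts (0.000383), and Plg by 0.47 (0.00392) and 0.69 (0.000882). In both genotypes the calls of F10, Plg and Serpinf2 held under each alternative tried, left-out libraries included.

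Fgg fell on HFD in controls (-0.76, SE 0.16, adjusted p = 0.00163) and Fgb likewise (-0.54, SE 0.17, adjusted p = 0.026), the latter lost when SD control 2, SD control 3, HFD control 1 or HFD control 2 was left out (highest adjusted p = 0.149). Fga was at 0.19, SE 0.15, adjusted p = 0.376, so the chain genes did not pass together. F11 fell in knockouts (-1.45, SE 0.26, adjusted p = 0.000641) and was at -0.50, SE 0.20, adjusted p = 0.0765 in controls, and the difference between these changes did not pass (-0.95, SE 0.32, adjusted p = 0.535). Other falls in controls were those of Klkb1 (-0.44), F9 (-0.43), F5 (-0.49), F13b (-0.26), Pros1 (-0.32), Serpinc1 (-0.38), Serpind1 (-0.40) and Cpb2 (-0.46). Of these, F13b and Pros1 lost their calls under 8 and 7 of 12 alternatives, and Pros1 was at -0.19 without SD control 3. In knockouts F9 (-0.52), Klkb1 (-0.51) and F12 (-0.44) also fell, Klkb1 and F12 no longer without HFD knockout 1, and Klkb1 also not without HFD knockout 2 (highest adjusted p = 0.0903).

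**Figure D5:**
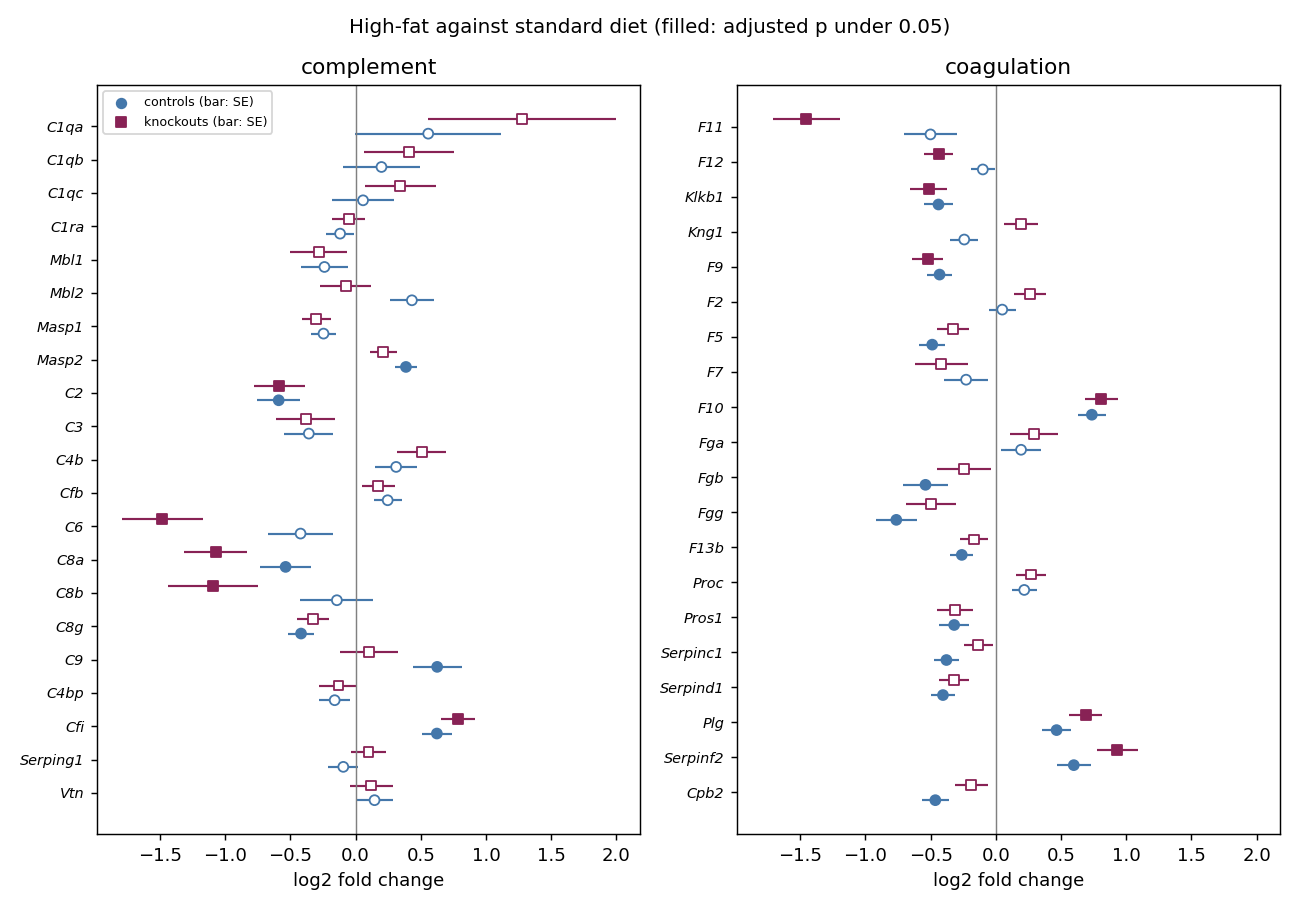
Log2 fold change of HFD against SD (horizontal axes) for all 41 members, circles in controls and squares in knockouts, with bars for the SE and filled symbols for an adjusted p under 0.05. F10, Plg, Serpinf2 and Cfi lie above 0 in both genotypes, and C6, C8a, C8b and F11 lie furthest below 0 in the knockouts.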

How the data were processed

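Each library's deposited file holds raw counts per gene symbol. Per the labels' protocols, RNA was extracted with Trizol and amplified with a Nugen Ovation kit. The build mm9 and the tools TopHat2 2.1.0, HTSeq and DESeq2 1.14.1 are named in the submitters' processing notes. Whether counting used strand is not given in the sources used here: overlapping or near-identical genes are uncertain. Libraries are not stated to be separate mice, and p-values then cover only their spread, which may be technical.

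Counts were tested with edgeR 4.0.16 in R 4.3.3 (quasi-likelihood test, TMM, filterByExpr with a minimum count of 10, 4 group means over all 12 libraries). Two-sided p-values were adjusted by Benjamini-Hochberg across the 12015 genes, with 0.05 as the threshold. The common biological coefficient of variation was 0.153. SE values follow from the test statistic. CPM use the TMM library sizes. Principal transcripts were found for 41 of 41 members. Each result was recomputed with DESeq2 1.42.0, with RLE size factors, unfiltered, on the compared groups alone, with the replicate number as a block, and leaving out each library. The procedure was also run on simulated counts of independent libraries, with each gene's spread estimated from these data. That run cannot show how far the calls above depend on single libraries.

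The members and lists were chosen with earlier results of these data known. Given per library were Nr5a2, members that passed in a knockout comparison, up to 4 per diet comparison and pathway by size among those that passed, and the core genes C1qa, C1qb, C1qc, C3, C9, F2, F11, Fga, Fgb, Fgg and Serpinc1. Other genes of the 2 pathways were named by smallest p, up to 4 per list. C1rl, C4b, Cfb, Colec11, Hc, Hrg, Nr0b2 and Saa1 were added after their values were seen.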

Additional observations from a re-analysis of the deposited data

Results flagged for a closer look

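Of the 41 members examined in the 4 HFD controls, 1 had a library far from the others. Serpind1, the heparin cofactor gene, was at 500.1, 600.3, 604 and 595 CPM, so that HFD control 1 (500.1 CPM) stood apart from the 3 others, which lay between 594.8 and 604.0 CPM. Chance flags about 1 in 20 such groups.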

How the results depend on the processing

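No member that passed changed direction under any alternative. Of 11 calls on SD, 11 passed with DESeq2 and 10 with the replicate block, and 0 passed under every left-out library. Of 14 averaged calls, 14 passed with DESeq2, 11 with the replicate block and 6 everywhere. In controls 13 of 19 diet calls passed everywhere, and in knockouts 7 of 12.

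On HFD the 2 complement calls became 5 with DESeq2, 0 with the replicate block and 0 with only the groups compared. The 0 coagulation calls became 3 with DESeq2 and 2 without the filter. Of all genes each fit tested, 2.7% passed on HFD in the main fit. That share was 1.89% with the replicate block, 1.03% with only the groups compared and 2.9% without the filter. DESeq2 called 424 of all 24062 genes listed, a base that is not comparable. With the replicate block the 8 averaged coagulation calls became 5, where 7.3% of all genes passed in place of 8.36%. The causes were not tested. With each library left out in turn, calls ranged from 1 to 4 (complement) and 0 to 6 (coagulation) on SD, 0 to 5 and 0 to 4 on HFD, and 3 to 10 for coagulation averaged over diets. For complement the diet calls in knockouts ranged from 2 to 5.

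By the labels, same-numbered libraries shared only a number. Their deviations from the group means correlated at -0.05 to 0.14 over 15 pairs, and 4 of 6 SD libraries correlated best with their own number. These values cannot decide whether libraries were paired. Without 1 HFD knockout, the other is assumed to vary like the other groups. The SD libraries, the shallower ones, limit the least abundant members, C1qa first.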
